A study of Macaca fascicularis with 132 samples.

Results

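The genes described here are 53 genes that showed a delayed, large and lasting difference between interleukin-15 (IL-15) cultures and control cultures of cynomolgus macaque blood cells. They were chosen by their measured values from the 38550 genes of the deposited cynomolgus count table, of which 10811 had a mean of at least 5 CPM (counts of the gene scaled to a common library total) in some control group. On the scale log2(CPM + 1), averaged over animals, a member had a difference between IL-15 and control under 0.3 at 2 h and of at least 1.2 at each of 12, 24 and 48 h, and its control level at 24 h was not lower than at 0 h by 1 or more. Differences at 2, 12, 24 and 48 h, and the control change at 24 h, therefore chose the members and are given as a description with no test. The comparison of IL-15 with control at 6 h was not used in the choice and was tested. The control level at 6 h entered the choice only through the floor of 5 CPM.

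Peripheral blood mononuclear cells (PBMCs, the lymphocytes and monocytes of blood) of 4 Macaca fascicularis animals, 2 females and 2 males, were cultured outside the body. One arm received the heterodimer of IL-15 with its receptor alpha chain (IL-15/IL-15Ra) at 40 ng/ml and was sampled at 2, 6, 12, 24 and 48 h. The other received none and was sampled at 0, 2, 6, 12, 24 and 48 h. Each of the 11 groups held 3 messenger RNA libraries from each of the 4 animals. No allele, strain, age or other agent is given in the labels. The design text speaks of a larger number of animals, and animals other than these 4 are not analysed here. The labels number the 3 libraries that share an animal and a group without saying if they came from separate cultures, so they were summed and the animal was the replicate.

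IL-15 is a cytokine that signals through the beta chain of the IL-2 and IL-15 receptor and the common gamma chain, which activate the Janus kinases and the transcription factor STAT5. In blood it is known for sustaining natural killer cells and memory CD8 T cells and for raising their cytotoxic and proliferative programmes. It is usually presented bound to its receptor alpha chain, which the heterodimer mimics. Genes that respond directly to STAT5 can change soon after the cytokine is added, and genes of growth, cell division and effector function tend to follow later. The deposited table gives Ensembl gene identifiers with no symbols, and none of the identifiers could be paired with a symbol in the reference table used here. The members are therefore described by their values, 2 of them by identifier, and no function is assigned to any of them.

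Library depth ran from 16423972 to 87944372 counts, with a median of 27185130, and the sums per animal and group from 54376963 to 126025607. In 3 libraries the profile stood far from those of the other 2 of the same animal and group. These were library 1 of animal 38142 in the control culture at 48 h, library 2 of animal 38147 with IL-15 at 24 h and library 3 of animal 38157 in the control culture at 2 h. None was taken at 0 or 6 h, and the rule gave 55 genes without them, 51 of them among the 53. The labelled cell type could not be checked against markers, which need gene symbols.

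At 6 h, 30 of the 53 members rose with IL-15 and none fell (edgeR quasi-likelihood test, Benjamini-Hochberg adjusted p under 0.05 over 18197 genes). That is 56.6% of the members, beside 5.12% of all genes tested that were called higher. Of the 10811 genes that passed the expression floor, 7.19% were called higher. The median log2 fold change of the members at 6 h was 1.10, with a range from -0.09 to 5.66, while the median over all genes tested was -0.01. No member was lower at an unadjusted p under 0.05, 1 had a negative fold change, and DESeq2 also called 0 members lower and 33 higher. In bulk RNA of a mixed population, more cells of a type and more RNA per cell cannot be told apart, so these are changes in a transcript's share of the culture. Without a term for the animal the test called 16 members, and with the libraries entered singly it called 47.

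The 30 members that rose at 6 h had log2 fold changes from 0.85 to 5.66 with a median of 2.08, and standard errors from 0.11 to 1.15. Among them 26 rose by at least 1 on the log2 scale and 16 by at least 2. Each of the 30 lay above control in all 4 animals, and the IL-15 and control values of 21 of them did not overlap. One of the 30 had 3 counts over the 4 control sums together and, with IL-15, 25, 2, 79 and 6 in animals 38142, 38147, 38155 and 38157, so its fitted fold change is not given. This member is counted in the 26 and the 16. The other 23 members had log2 fold changes from -0.09 to 1.71 with a median of 0.67, and 11 of them had an unadjusted p under 0.05. In this group 18 were higher in 4 of 4 animals and the values of 4 did not overlap between cultures. Of all 53 members 48 were higher in 4 of 4 animals at 6 h, beside 2620 of the 10811 genes that passed the expression floor.

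Counted over all members, the 4 IL-15 values lay above the 4 control values at 6 h for 25 of 53, or 47.2%, beside 3.07% of all genes tested. Among the 10811 genes that passed the expression floor they did so for 417. The size of the difference varied between animals. The median difference over members at 6 h, in log2(CPM + 1), was 0.95 in animal 38142, 0.63 in animal 38147, 1.70 in animal 38155 and 0.74 in animal 38157. Animal 38155 had the greatest difference of the 4 for 43 members, and animal 38147 the smallest for 35. Without animal 38155 the test called 20 members, with a median log2 fold change of 0.88, and without animal 38142 also 20, with a median of 1.11.

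**Figure D1:**
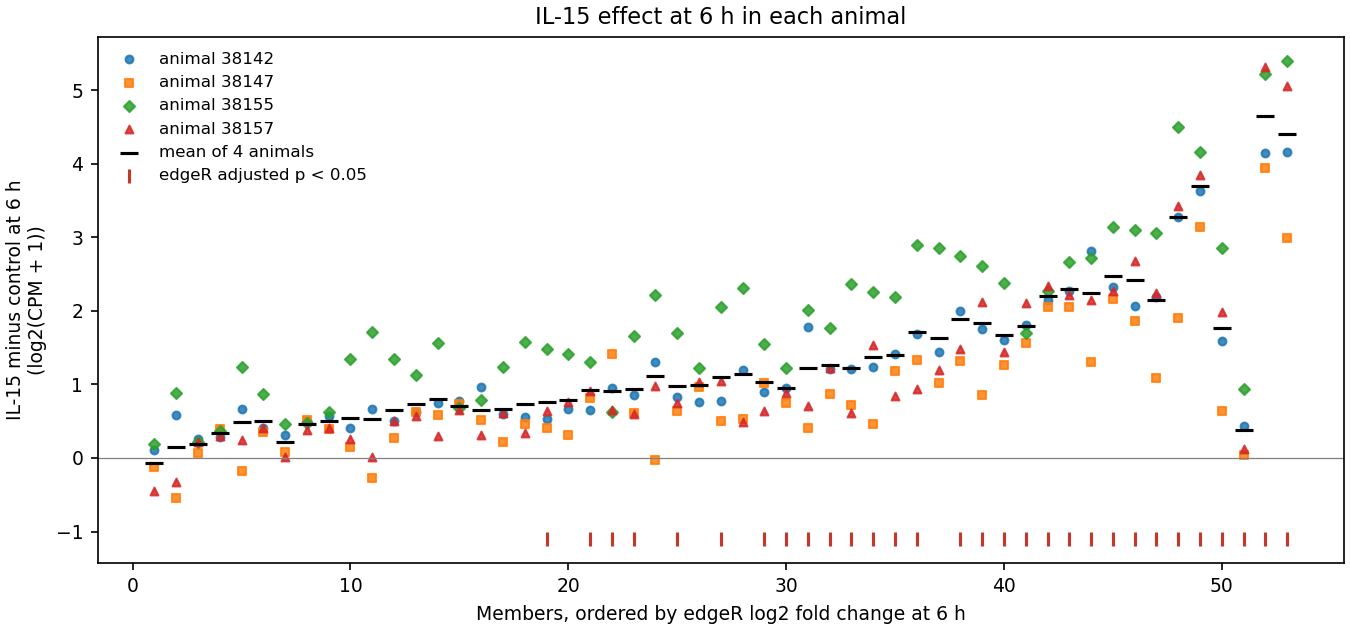
IL-15 minus control at 6 h for each of the 53 members, in log2(CPM + 1), on the vertical axis, with members ordered by their edgeR log2 fold change on the horizontal axis. Symbols are the 4 animals, black bars their mean, and red ticks mark the 30 members called higher. The points of animal 38155 lie highest for 43 members, and 48 members lie above 0 in all 4 animals.

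The 2 members with the highest fold change at 6 h, among those of at least 5 CPM, were ENSMFAG00000045313 and ENSMFAG00000039917. ENSMFAG00000045313 had control values at 6 h of 2.41, 0.127, 3.78 and 0.706 CPM in animals 38142, 38147, 38155 and 38157. With IL-15 the values in the same order were 59.7, 7.94, 201 and 55.6 CPM. The lowest IL-15 value, in animal 38147, lay above the highest control value, in animal 38155, so the groups did not overlap. The log2 fold change was 5.66 ± 0.68 (SE of the fit over all 11 groups, n = 4 animals), with an edgeR adjusted p of 5.3e-07. ENSMFAG00000039917 had control values of 5.14, 0.362, 8.48 and 1.25 CPM at 6 h and IL-15 values of 108.02, 19.8, 352 and 88.4 CPM in the same order of animals. Again all 4 IL-15 values lay above all 4 control values, and animals 38155 and 38147 were the highest and the lowest in both cultures. Its log2 fold change was 5.50 ± 0.77 (SE of the same fit, n = 4), with an edgeR adjusted p of 6.9e-06.

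Both genes had few counts at the start. At 0 h ENSMFAG00000045313 had 0.236, 0.286, 0.151 and 0.0122 CPM in the 4 animals, and ENSMFAG00000039917 had 1.54, 1.94, 0.720 and 0.268 CPM. At 2 h with IL-15 the first had at most 0.106 CPM and the second at most 1.12 CPM, and neither was above its 0 h mean. The course of the first gene with IL-15 then reached 138, 53.5, 327 and 89.3 CPM at 12 h, 250.2, 154, 443 and 50.8 CPM at 24 h and 64.8, 44.2, 178 and 20 CPM at 48 h. In 3 animals it was highest at 24 h, and in animal 38157 at 12 h. The second gene had 379, 186, 949.7 and 197 CPM at 12 h, 1087, 1036, 2026 and 229 CPM at 24 h and 591, 689, 1719 and 163 CPM at 48 h. It was highest at 24 h in every animal.

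The control cultures of these 2 genes also moved. For ENSMFAG00000039917 the control values were 45.7, 12.9, 89.5 and 8.02 CPM at 24 h and 44.5, 55.5, 240.2 and 11.3 CPM at 48 h, against at most 1.94 CPM at 0 h. Its control level had thus climbed by 4.71 on the log2(CPM + 1) scale by 48 h, and the difference between cultures, 5.74 at 12 h, was 3.47 ± 0.43 (SD, n = 4) at 48 h. For ENSMFAG00000045313 the control values at 48 h were 2.83, 2.22, 37 and 0.413 CPM, so that animal 38155 stood far above the others. The control mean of this gene met the floor of 5 CPM only at 24 and 48 h, with 5.51 and 10.6 CPM. At both times animal 38155 alone was above 5 CPM, so the gene passed the floor only through this animal. The difference between cultures for ENSMFAG00000045313 was 5.96 ± 0.33 at 12 h, 5.25 ± 0.89 at 24 h and 3.51 ± 0.86 at 48 h (SD, n = 4).

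**Figure D2:**
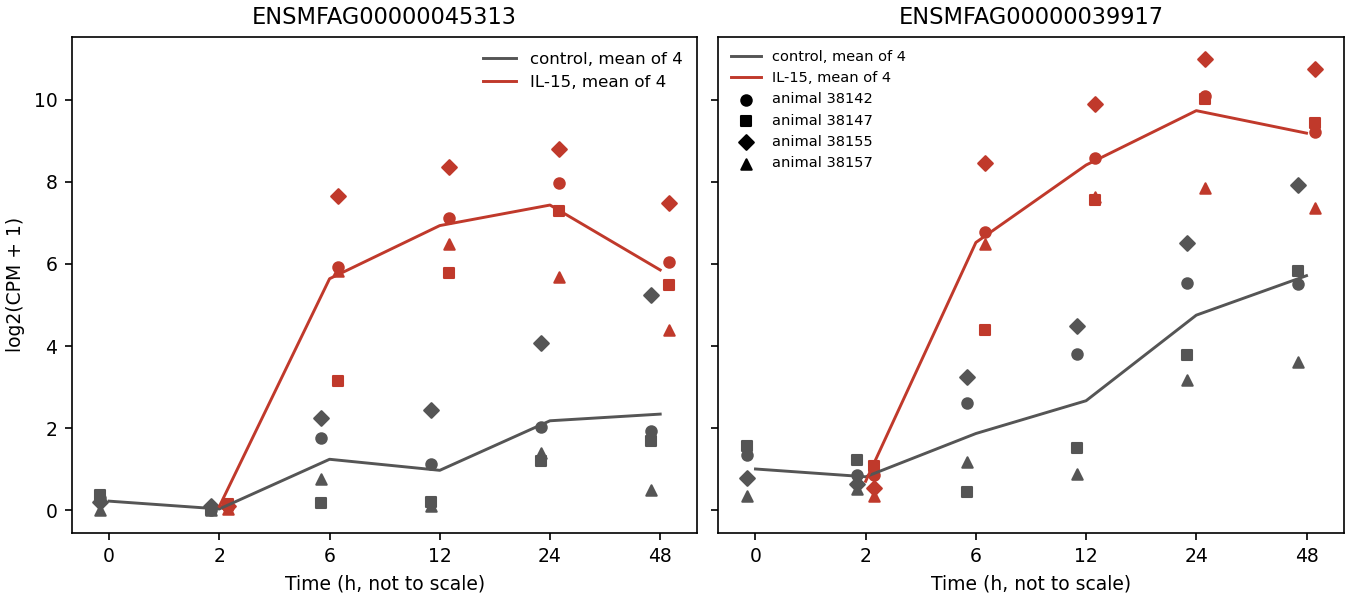
Levels of ENSMFAG00000045313 (left) and ENSMFAG00000039917 (right) in log2(CPM + 1) on the vertical axis against time in culture on the horizontal axis, which is not to scale. Each symbol is 1 animal, grey for control and red for IL-15, and lines join the means of the 4 animals. Both cultures lie together at 2 h and apart from 6 h on, and the grey line of the second gene climbs to 48 h.

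Over the whole set the course was flat at 2 h, intermediate at 6 h and greatest at 12 and 24 h. The median difference between IL-15 and control in log2(CPM + 1) was -0.00, 1.00, 2.20, 2.29 and 1.75 at 2, 6, 12, 24 and 48 h. Over the 10811 genes that passed the expression floor the medians at these times were 0.02, -0.03, -0.15, -0.14 and -0.07. At 12 and at 24 h each of the 53 members was higher in 4 of 4 animals, and at 48 h 51 were. At 2 h, 10 members were higher in 4 of 4 animals and 27 had a mean difference below 0. Of the 10811 genes, 2128, 2045 and 2583 were higher in 4 of 4 animals at 12, 24 and 48 h. At 2 h 2778 of them were, and 4644 had a mean difference below 0. Without the 3 libraries that stood apart the medians at 24 and 48 h were 2.32 and 1.80. These values chose the members, apart from those at 6 h.

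**Figure D3:**
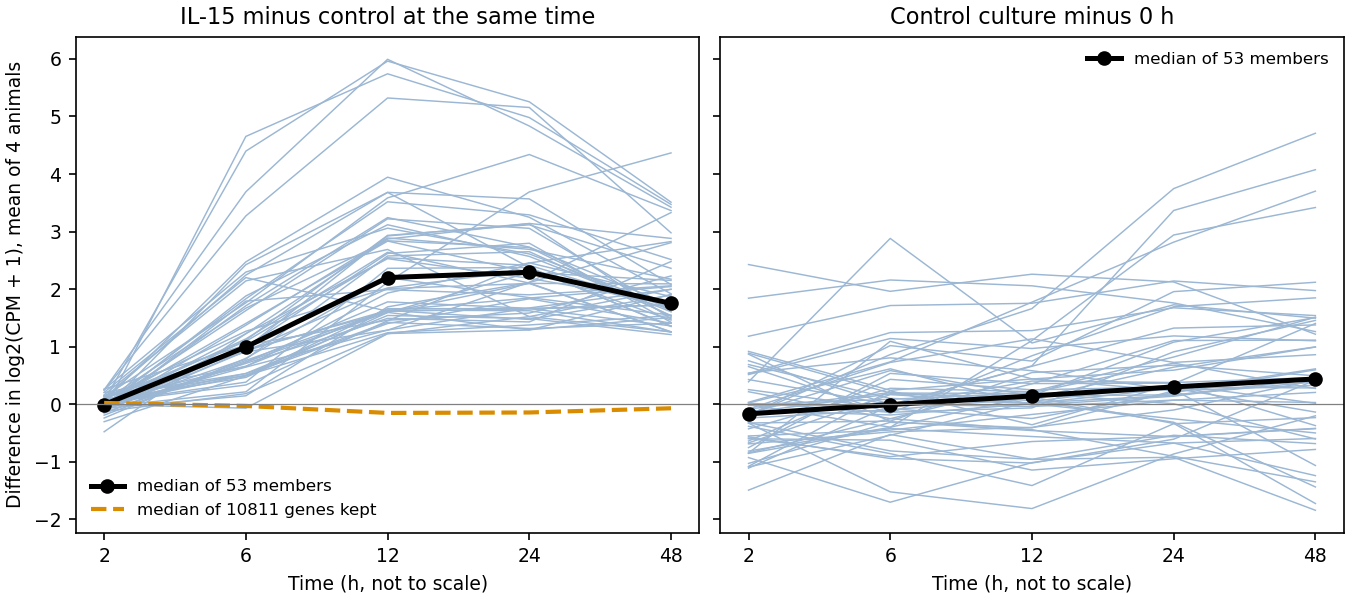
Left, IL-15 minus control in log2(CPM + 1), mean of 4 animals, against time (not to scale), with a thin line for each of the 53 members, their median in black and the median of the 10811 genes kept by the expression floor as a dashed line. Right, control culture minus 0 h on the same scale. The black line runs from -0.00 at 2 h over 1.00 at 6 h to 2.29 at 24 h, and 4 members stand above the others at 12 h.

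The difference at 6 h was under that at 12 h for all members but 1. The ratio of the log2 difference at 6 h to that at 12 h had a median of 0.475 and ran from -0.05 to 1.36. The rule set a lower bound on the difference at 12 h and none at 6 h. Ratios under 1 thus partly follow from the choice of members. By 6 h, 22 members had reached the difference of 1.2 that the rule asked for later, and 4 were still under 0.3. Across the 53 members the differences at 6 and 12 h had a Pearson r of 0.90 and a Spearman rho of 0.81. For 6 and 48 h these were 0.35 and 0.17. The points share libraries, animals and, through the rule, a lower bound on the later differences, so the correlations describe the members only.

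The members were sorted by the time of the greatest difference among 12, 24 and 48 h. It was at 12 h for 25 members, at 24 h for 14 and at 48 h for 14. The medians at these times partly follow from the sorting. Some maxima were near ties, such as a member with 2.36 at 12 h and 2.38 at 24 h. The median SD over animals was 0.47 at 12 h and 0.53 at 24 h. The 25 members with the earliest maximum had median differences of 1.67, 2.89, 2.57 and 1.67 at 6, 12, 24 and 48 h. For the 14 with the latest maximum the medians were 0.68, 1.48, 1.67 and 2.05 at the same times. At 6 h the test called 17 of the 25, 7 of the 14 with a maximum at 24 h and 6 of the 14 with a maximum at 48 h. The difference between these shares was not tested.

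From 12 to 48 h the difference became smaller for 35 members and greater for 18, with a median change of -0.56 and a range from -2.57 to 2.25. This rested most on animal 38155 and next on animal 38157. Taken singly, the median change was -0.02 in animal 38142, -0.09 in animal 38147, -1.58 in animal 38155 and -0.78 in animal 38157. In the same order 28, 28, 40 and 38 members had a smaller difference at 48 h. Without animal 38155 the median change was -0.22, with 28 members smaller and 25 greater. Without animal 38157 it was -0.43, with 35 smaller and 18 greater. The 4 members with a difference above 5 at 12 h ended between 2.98 and 3.51 at 48 h. The control cultures moved as well. In the members with a maximum at 12 h the control level at 48 h lay a median of 1.10 above 0 h on the log2 scale, against 0.36 and 0.44 in those with a maximum at 24 and 48 h. The control level at 48 h is part of the difference at 48 h. A high control level then moves a maximum to an earlier time, so the sorting partly fixes these medians. The part of the control change in the narrowing was not tested.

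**Figure D4:**
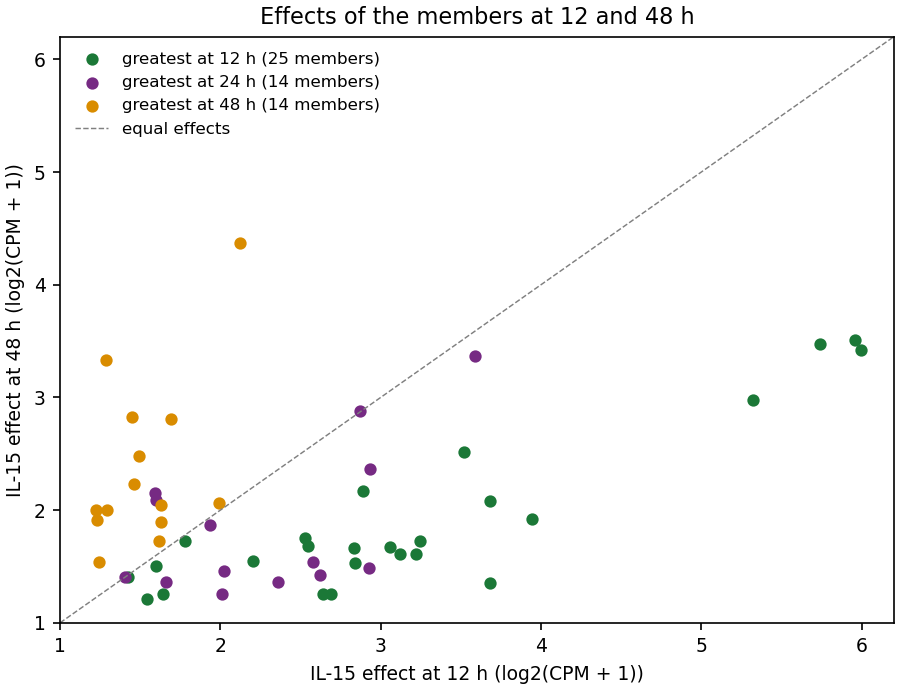
IL-15 minus control at 12 h (horizontal axis) and at 48 h (vertical axis), both in log2(CPM + 1) and mean of 4 animals, with a point for each of the 53 members coloured by the time of its greatest difference. The dashed line marks equal differences, and 35 members lie below it.

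Single members show how unlike these courses were, and the following were chosen after their values were seen. The member with the greatest difference at 48 h had control values of 2.01, 0.860, 0.0685 and 1.33 CPM at 6 h in animals 38142, 38147, 38155 and 38157, and 2.74, 0.961, 0.477 and 1.34 CPM with IL-15. Its cultures overlapped at 6 h, and its log2 fold change of 0.53 ± 0.79 (SE) had an edgeR adjusted p of 0.79. By 48 h it stood at 823, 73.9, 299 and 507 CPM with IL-15 and at 41.2, 13.9, 3.85 and 16 CPM in control, a difference of 4.37 in log2(CPM + 1). It climbed in both cultures, with a control change of 3.70 from 0 to 48 h.

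The opposite course belonged to the 1 member whose difference was greater at 6 h than at 12 h. At 6 h it had 22.8, 32.2, 42.2 and 20.6 CPM in control and 104.7, 137, 206 and 108.2 CPM with IL-15 in the same order of animals. The groups did not overlap, and the log2 fold change was 2.27 ± 0.11 (SE) with an edgeR adjusted p of 2.4e-17. Its difference then stayed level, at 1.62 at 12 h, 1.66 at 24 h and 1.72 at 48 h. In control cultures from 12 to 48 h it stayed between 26.5 and 59.5 CPM.

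The member with the lowest fold change at 6 h, -0.09 ± 0.26 (SE) with an edgeR adjusted p of 0.90, had 8.52, 6.72, 6.02 and 21.1 CPM in control and 9.26, 6.10, 7.03 and 15.2 CPM with IL-15. With IL-15 it reached 29.4, 12.8, 17.8 and 34 CPM at 12 h and 139, 88.3, 98.3 and 101.6 CPM at 48 h. The cultures thus overlapped at 6 h and did not at 48 h, where control values ran from 22.4 to 28.8 CPM.

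CPM values are not corrected for gene length, so the share of counts of a gene is not its number of transcripts relative to another gene. By counts, the member with the most with IL-15 at 24 h had 4840, 5710.5, 6408 and 1350.2 CPM then, against 477, 172, 1232 and 286 CPM in control. Its 6 h values were 3006, 1426, 3966 and 1706 CPM with IL-15 and 602, 317, 448 and 352 CPM in control. The lowest IL-15 value exceeded the highest control value at both times, and the 6 h log2 fold change was 2.47 ± 0.47 (SE) with an edgeR adjusted p of 0.000489.

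The member with the most counts at 0 h differed between animals from the start, with 963, 2898, 1639 and 410.4 CPM. In control culture it had 553, 789, 665 and 686 CPM at 6 h and 329, 312, 692 and 159 CPM at 48 h. With IL-15 it had 929, 1187, 1960.1 and 845 CPM at 6 h and 922, 1423, 1261 and 506 CPM at 48 h. Control levels at 48 h were below the 0 h levels in every animal, while IL-15 levels at 48 h were below them in 3 of 4. The 6 h log2 fold change of 0.77 ± 0.39 (SE) had an edgeR adjusted p of 0.26.

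Starting levels spanned a wide range. The mean at 0 h was under 5 CPM for 14 members, from 5 to 100 CPM for 32 and at least 100 CPM for 7, with a median of 14.2 CPM. At 6 h the test called 9 of the 14, 17 of the 32 and 4 of the 7. Median differences at 12 h were 2.55, 1.86 and 2.89 in log2(CPM + 1) in the same order. The added 1 in this scale understates the change of the members with the fewest counts.

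Together the members took up 0.349% of all counts in control culture at 6 h and 1.11% with IL-15. The sum over members was 3669, 3339, 3285 and 3650 CPM in control at 6 h in animals 38142, 38147, 38155 and 38157, and 11554, 6800, 16602 and 9333 CPM with IL-15. With IL-15 it was 24411, 14620, 33858 and 21563 CPM at 12 h, 27670, 22531, 32394 and 13314 CPM at 24 h and 16076, 12131, 20790 and 8500 CPM at 48 h. Animal 38155 was the highest with IL-15 at each time from 6 h, and the lowest was animal 38147 at 6 and 12 h and animal 38157 at 24 and 48 h. The 3 members with the most counts made up 49.9% of the sum with IL-15 at 6 h and 42.7% at 24 h, so the sum describes few genes. The sum was not an outcome of its own test, since the choice of members fixes its direction.

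**Figure D5:**
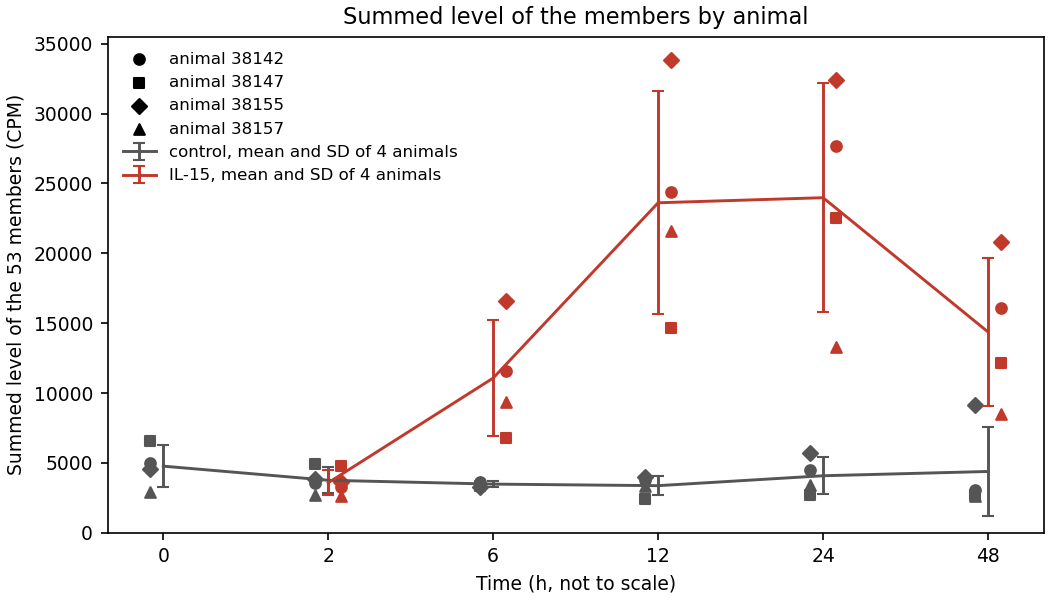
Summed level of the 53 members in CPM on the vertical axis against time in culture (not to scale), grey for control and red for IL-15. Symbols are animals, and lines and bars give the mean and SD of 4 animals. IL-15 values from 6 h on lie above the control values of the same time except for the control of animal 38155 at 48 h, 9174 CPM, which lies above the IL-15 value of animal 38157.

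In culture without IL-15 the members went both ways. From 0 to 6 h in control culture, 9 members rose and 9 fell (edgeR quasi-likelihood test, adjusted p under 0.05), or 17% each way. Over all genes tested 25.5% rose and 25.5% fell in the same comparison. Over the 10811 genes that passed the expression floor, as every member did, 33.9% rose and 28.6% fell. The members' median log2 fold change was -0.20, with a range from -2.13 to 3.05. The comparison shares its 0 h values with the control change at 24 h that the rule limited. The control levels at 0 and 6 h also counted toward the expression floor, so this comparison is not free of the choice. Without animal 38142 the test called 10 members in place of 18, and without a term for the animal 9.

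The member that rose most from 0 to 6 h in control culture went from 0.827, 0.885, 0.755 and 1.11 CPM to 6.31, 8.40, 2.22 and 22 CPM, a log2 fold change of 3.05 ± 0.66 (SE) with an edgeR adjusted p of 0.000231. With IL-15 at 6 h it had 9.91, 5.45, 4.95 and 17.3 CPM, so the cultures overlapped, and by 48 h it had 48.9, 9.20, 40.1 and 47.6 CPM with IL-15 against 3.52, 2.85, 6.33 and 2.32 CPM in control. The member that fell most went from 12.9, 10.3, 17 and 15 CPM to 3.15, 3.23, 3.90 and 3.73 CPM, a log2 fold change of -2.13 ± 0.17 (SE) with an edgeR adjusted p of 6.8e-13. With IL-15 the same gene was at 13.5, 11.4, 14.9 and 19.4 CPM at 6 h, near its 0 h values. In that gene the IL-15 cultures thus differed from control at 6 h by 2.09 ± 0.17 (SE, edgeR adjusted p of 1.6e-11) while lying close to the starting level.

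Measured from 0 h, most members nonetheless stood above the starting level with IL-15. The median change from 0 h with IL-15, in log2(CPM + 1), was -0.18, 1.11, 2.37, 2.71 and 2.29 at 2, 6, 12, 24 and 48 h. In control culture it was -0.17, -0.00, 0.15, 0.30 and 0.44 at the same times. A decrease of at least 1 from 0 h was seen at 48 h for 6 members in control culture and for 0 with IL-15. An increase of at least 1 over 0 h was seen at 48 h for 46 members with IL-15 and for 18 in control culture. The expression floor favours such a control rise. The 14 members under 5 CPM at 0 h could pass it only through a later control group. In mean CPM over animals, and not on the log2 scale, the control level at 48 h was above the IL-15 level at 6 h for 15 members. By the same measure it was above the IL-15 level at 12 h for 3. For 1 of these 3 the SD of the control values at 48 h exceeded their mean. On the log2(CPM + 1) scale its control change at 48 h was -0.20, while every member was above 0 h with IL-15 at 12 h. On that scale its control level at 48 h was thus the lower of the 2.

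The late control climb rested largely on 1 animal. At 48 h in control culture animal 38155 had the highest level of the 4 for 44 of the 53 members, while over the genes kept by the expression floor it was highest for 22.2%. Its summed level was 9174 CPM, against 3058, 2671 and 2655 CPM in animals 38142, 38147 and 38157. In the library of animal 38142 that stood apart at this time the sum was 3878 CPM, beside 2866 and 2508 CPM in the other 2 libraries of that animal, still under the value of animal 38155. Without animal 38155 the median control change at 48 h was 0.05 in place of 0.44, and the median difference between cultures at 48 h was 1.97 in place of 1.75. The member with the greatest excess had 2538 CPM in this culture and 527, 426 and 333 CPM in the others, while with IL-15 at 48 h it had 3122, 2538, 1912 and 1294 CPM in animals 38155, 38142, 38147 and 38157. The control level of animal 38155 thus lay within the IL-15 range for this gene. The cause was not tested.

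Members were compared with 24 genes that met the same thresholds at 12, 24 and 48 h but already had a difference of at least 0.3 at 2 h. At 6 h the test called 23 of these 24 higher, with a median log2 fold change of 1.74, against 30 of the 53 members with 1.10. The sets differ by the 2 h difference and by the limit on the control change at 24 h, which was not applied to the 24. Of these, 20 met it, and 19 of the 20 were called, with a median of 1.82. No test of the difference between the sets was run. Their medians at 12, 24 and 48 h were 2.16, 1.86 and 1.84 in log2(CPM + 1), beside 2.20, 2.29 and 1.75 for the members.

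Some members lay close to the thresholds. The nearest inside had a difference of 1.21 at 48 h, followed by members with 1.23 at 12 h. The nearest outside had a control change of -1.005 at 24 h, and others had differences of 1.18 at 12 h and of 1.18 at 48 h. The limit on the control change left out 10 genes that met all other conditions.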

How the data were processed

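The deposited values are raw counts per gene and library from a table with cynomolgus gene identifiers, unnormalized by the authors as far as the whole numbers and differing totals show. The kits were Qiagen RNeasy for the RNA and KAPA mRNA HyperPrep for the libraries, per the labels' protocols. The aligner, counter, strand setting and genome build were not given in the sources used here. A second deposited table of counts, with rhesus identifiers for the same libraries, served only as an alternative chosen after seeing the data.

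The members and lists were chosen with earlier results of these data known. Counts of the 3 libraries of an animal and group were summed to 44 sums. Counts agreed less well than sampling noise allows in every pair of such libraries (lowest chi-square per degree of freedom 3.57), so no library was a copy. Members were found on log2(CPM + 1) as described above. The test was edgeR 4.0.16 in R 4.3.3 (TMM, filterByExpr, robust quasi-likelihood fit, Benjamini-Hochberg adjustment over 18197 genes), with animal and group as terms over all 11 groups. The standard error is the log2 fold change divided by the square root of F. It rests on the spread over all 44 sums, those of the times that chose the members among them, and not on the 6 h groups alone. The test was run on simulated data first. The same animals are in every group: deviations of sums of 1 animal correlated in 20 of 20 pairs of group (lowest r 0.571, median 0.80, over 10111 genes), so the design is paired by animal. Column names carry 6 unexplained sets of library tokens, spread unevenly over the groups. Alternatives covered scaling, filters, DESeq2 1.42.0, left-out animals and libraries, and other terms.

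The 2 printed identifiers are the members with the highest edgeR fold change at 6 h and at least 5 CPM in the higher group. Identifiers matched to a symbol numbered 0, so the prepared pathway and cell marker lists, and the naming of genes through them, could not be run. No gene sequence or position is given for the same reason.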

Additional observations from a re-analysis of the deposited data

Results flagged for a closer look

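Among 48 groups of 4 animals (2 printed genes and the summed level of the members, by group and by difference), 7 had 1 animal whose gap to the nearest other was large for the range of the group. About 1 in 20 groups, or 2.4 of 48, would do so by chance if groups were independent and values normally spread. The 48 groups reuse the same animals and sums, so 7 beside 2.4 is not a test. Of the 7, 6 were of animal 38155.

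ENSMFAG00000045313 in control culture had 0.0808 CPM in animal 38155 at 2 h, against 0 to 0.0120 CPM in the others. In control culture at 24 h the same animal had 16 CPM against 1.30 to 3.10 CPM, and at 48 h 37 CPM against 0.413 to 2.83 CPM. Its difference between IL-15 and control at 48 h was 2.23 in log2(CPM + 1) for animal 38155, against 3.81 to 4.10 in the others. ENSMFAG00000039917 had a difference of 6.23 at 24 h in animal 38147 against 4.48 to 4.67, and of 2.83 at 48 h in animal 38155 against 3.61 to 3.74. The summed level of the members in control culture at 48 h was 9174 CPM in animal 38155, against 2655 to 3058 CPM. The 0.0808 CPM at 2 h rests on few counts.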

How the results depend on the processing

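The count of members that rose at 6 h, 30, was 16 with no replicate block for the animal, 47 with the libraries entered singly, 47 when the token set was added to that fit and 47 with a replicate block of library number. It was 43 with a block of animal and time, which paired both cultures of an animal and time. Leaving out an animal or a library number gave 20 to 30. Of the 30 members, 14 were called under all 18 alternatives run on this table, and 50 of 53 kept a positive fold change in them. Both printed genes stayed called in these 18, with log2 fold changes of 5.17 to 6.10 and 5.01 to 5.86. With only the groups compared, their standard errors were 0.34 and 0.36, with edgeR adjusted p of 0.0016 and 0.0021. The 18 members that changed from 0 to 6 h in control culture were 9 with no replicate block, 32 with only the groups compared, 33 with libraries singly and 34 with the token set added. Leaving out an animal or a library number gave 10 to 18.

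The background moved too. All genes called at 6 h, 932 higher and 644 lower, numbered 298 and 92 with no replicate block, 447 and 293 without animal 38155, 479 and 336 without animal 38142, 1480 and 1100 with the block of animal and time, 1837 and 2274 with only the groups compared and 1906 and 1856 with libraries singly. The rule gave 30 genes with thresholds of 1.5, 79 with 1.0, 63 with TMM-scaled CPM, 45 and 66 with floors of 10 and 1 CPM, and 42 to 57 without an animal or library number. In the rhesus table it gave 54, of which 30 rose at 6 h. The rhesus table was not joined to these members, since no symbols were at hand.

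Within token sets at 6 h, the members' median difference was 0.70, 0.99, 0.80 and 1.46 in the 4 sets that held both cultures, with 44, 51, 44 and 49 of 53 higher, beside 42.7%, 38.3%, 51.3% and 34.9% of the genes kept by the floor. These differences mix animals: 1 animal was in both cultures in 3 of these sets and none in the set of 0.80, so they are not paired. One set held 6 control libraries and none with IL-15. Each arm rests on 4 animals, and depth limits only members with few counts.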
